A study of Mus musculus with 17 samples.

Results

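Described here are 31 genes of cholesterol and fatty acid synthesis and of its control in a murine leukaemia cell line, out of 15254 genes that could be tested on the arrays. A gene was included when the array's own gene name was one of 31 chosen symbols, and its brightest probe was used. The sterol arm holds 16 of them, the fatty acid arm 9, the control of the pathway 4 (Srebf1, Srebf2, Scap and Insig1), and 2 others lie on side branches (Ggps1 and Stard4). Every one of the 31 had a probe, and 30 could be tested; each of those 30 was well above background on all 17 arrays. The exception was Scd1, a stearoyl-CoA desaturase, whose single probe was well above background on 0 of the 17 arrays.

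The cells were DA1-3b, a Bcr-Abl+ line from C3H eOuJ mice, and each group had been transfected with 1 plasmid or 1 pair of plasmids for p65/RelA, the transactivating subunit of NF-κB. The groups were the wild-type protein (WT, 4 arrays), the D361E point mutant (4 arrays), residues 1-361 (3 arrays), residues 362-549 (3 arrays) and both fragments together (1-361+362-549, 3 arrays). By the series' design text, D361E is not cleavable and the fragments are what cleavage yields. All groups carry Bcr-Abl and a RelA plasmid; void-plasmid cells, named in the treatment protocol, are not analysed here. The labels name no promoter, clone, time after transfection or separate cultures, so the p-values measure the spread between arrays, which may be technical.

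Cells make cholesterol from acetyl-CoA through mevalonate, isoprenoid diphosphates and squalene. Fatty acids are made from the same acetyl-CoA through malonyl-CoA and are then elongated and desaturated. The genes of both routes are targets of the SREBP transcription factors, which SCAP escorts out of the endoplasmic reticulum when sterols are low and INSIG proteins hold back when sterols are high. SREBP-2, the product of Srebf2, acts mainly on the sterol arm, and SREBP-1, the product of Srebf1, mainly on the fatty acid arm.

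NF-Y and Sp1 sites commonly lie beside SREBP sites in such promoters. The bases before the start of 4 genes that differed between constructs are shown, with the NF-Y letters (CCAAT or its complement ATTGG) in capitals, as examples from both arms. They come from RefSeq (GRCm38.p6), are read 5′ to 3′ on the gene's strand and end at the base before the start. Idi1 is at chr13:8885456-8885605 (plus strand), Nsdhl at chrX:72918371-72918520 (plus), Hsd17b7 at chr1:169969206-169969355 (minus) and Me1, at the outermost of its 2 listed starts, at chr9:86695915-86696064 (minus).
Idi1: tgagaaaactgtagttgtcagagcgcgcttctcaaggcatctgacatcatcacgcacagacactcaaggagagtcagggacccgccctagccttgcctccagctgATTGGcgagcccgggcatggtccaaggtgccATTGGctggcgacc
Nsdhl: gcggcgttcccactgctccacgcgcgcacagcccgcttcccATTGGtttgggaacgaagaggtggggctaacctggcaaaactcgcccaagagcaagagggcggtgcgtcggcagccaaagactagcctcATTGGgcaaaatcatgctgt
Hsd17b7: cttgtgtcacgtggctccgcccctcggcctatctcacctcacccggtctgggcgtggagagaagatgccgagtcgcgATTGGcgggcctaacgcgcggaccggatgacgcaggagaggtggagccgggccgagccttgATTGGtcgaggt
Me1: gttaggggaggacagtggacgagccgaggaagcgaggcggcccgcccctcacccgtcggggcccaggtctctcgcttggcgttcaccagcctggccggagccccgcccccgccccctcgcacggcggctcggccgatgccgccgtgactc
The stretches of the 3 sterol genes each held 2 NF-Y matches, and that of Me1 held 0; 1 match lay at the other listed start of Me1. Fads2, a fatty acid gene that was also higher with both fragments, had 0 in its window. In windows of 250 bases before to 50 bases after a start, with both strands searched and each motif counted on its own, so that motifs may overlap, NF-Y letters were found for 12 of 13 sterol genes with a listed promoter and for 3 of 6 fatty acid genes, against 41.1% of 27025 genes. The Sp1 letters GGGCGG were found for 12 of 13 and 3 of 6, against 38.2% of all genes.

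The SRE core TCACNCCAC, an SREBP-binding sequence, was found for 1 of the 24 members with a listed promoter, Hmgcs1, and for 1.44% of all genes. It is shown in capitals as the only exact match, in bases before the start at chr13:119690184-119690252 (plus strand).
Hmgcs1: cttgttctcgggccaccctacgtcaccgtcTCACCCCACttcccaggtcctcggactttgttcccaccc
The E-box CACGTG was found for 4 members (16.7% against 8.09% of all genes), Hsd17b7, Dhcr7, Scap and Insig1. The RelA-type letters GGNNTTTCC were found for 3 (12.5% against 6.62%), Hmgcs1, Mvd and Srebf1. These are matches of letters only.

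Levels are given as log2 of the array signal minus that array's 75th percentile, so 1 unit is a 2-fold difference and a level can be set only against the same gene in another array. The 75th percentile signal was on average 678 for 362-549 and 1040 for 1-361+362-549, with the other groups between 774 and 909. Arrays of one group correlated at 0.966 to 0.995 across genes. The array's Rela probe does not tell endogenous from transfected RNA apart, and its group means lay between 4.74 and 4.86. Of 6 markers of the leukaemic progenitor, 5 were measured and Kit was not well above background on any array. A gene was called when limma's moderated test gave a Benjamini-Hochberg adjusted p under 0.05 over all 15254 genes.

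The arrays also carry a number in their titles. Numbers 2 to 6, 8 to 12 and 14 to 18 each hold 1 array of every construct, in the order in which the protocol lists them, and 20 and 21 hold the fourth WT and D361E arrays. These sets are called rounds 1 to 4 here, although the labels do not say what a number stands for. The round 3 arrays stood apart for most of these genes, so each construct's arrays are read with their round, and results are also given within rounds.

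Idi1, the isomerase that makes dimethylallyl diphosphate from isopentenyl diphosphate, had the highest change of any member. In cells with both fragments the Idi1 level was 4.35, 4.35 and 3.95 on the 3 arrays. It was 2.47, 2.43, 3.15 and 2.00 in WT, 2.07, 1.98, 2.71 and 2.38 in D361E, 2.11, 2.90 and 1.97 with 1-361, and 2.18, 2.32 and 2.95 with 362-549. All 3 arrays with both fragments lay above all 14 others, with no overlap. Idi1 rose 3.26-fold with both fragments against WT (1.71 ± 0.29 log2, SE; limma adjusted p = 0.00187). The rise was 1.93 ± 0.29 against D361E (adjusted p = 0.000419), 1.89 ± 0.31 against 1-361 (0.00136) and 1.73 ± 0.31 against 362-549 (0.0022). Within rounds 1, 2 and 3 the difference from WT was 1.88, 1.92 and 0.81, positive each time and smallest in round 3. With the slide as a fixed block the adjusted p against WT was 0.0508, and within the only slide that held both groups the difference was 1.88.

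Mvk, mevalonate kinase, was higher with both fragments than with either fragment alone. Its levels were 3.25, 2.98 and 3.27 with both fragments, 2.49, 2.70 and 2.49 with 1-361, and 2.71, 2.57 and 2.37 with 362-549. WT stood at 3.1, 2.96, 2.71 and 2.71 and D361E at 2.78, 2.75, 2.94 and 2.96. The arrays with both fragments did not overlap those of either fragment alone, and they did overlap those of WT. Mvk rose by 0.61 ± 0.15 against 1-361 (limma adjusted p = 0.0173) and by 0.62 ± 0.15 against 362-549 (0.0127). The first call was lost without replicate 1 of both fragments or 1-361 replicate 1 or 3, and the second without replicate 1 of both fragments or 362-549 replicate 3.

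Nsdhl and Hsd17b7 remove the C4 methyl groups of the sterol ring, and both were higher with both fragments. Nsdhl was at 0.47, 0.45 and 0.69 there, against -0.58, -0.75, -0.09 and -0.43 in D361E and -0.78, -0.26 and 0.04 with 362-549. These groups did not overlap, while WT (-0.23, -0.02, 0.31 and -0.54) and 1-361 (-0.42, 0.24 and -0.54) also lay below every array with both fragments without being called. Nsdhl rose 2.00-fold against D361E (1.00 ± 0.25 log2; limma adjusted p = 0.0176) and 1.82-fold against 362-549 (0.86 ± 0.26; 0.0401). The call against 362-549 was lost without any 1 array of both fragments or 362-549 replicate 1 or 2, and that against D361E without replicate 1 of both fragments or D361E replicate 1 or 2.
Hsd17b7 was at 0.86, 0.59 and 0.78 with both fragments, -0.19, 0.02, 0.32 and 0.05 in D361E, -0.27, 0.28 and -0.19 with 1-361, and -0.48, 0.21 and 0.05 with 362-549. Its WT arrays were at -0.03, 0.25, 0.38 and 0.30, again below all 3 arrays with both fragments. Hsd17b7 rose by 0.69 ± 0.19 against D361E, 0.80 ± 0.20 against 1-361 and 0.82 ± 0.20 against 362-549 (limma adjusted p = 0.0297, 0.0218 and 0.0155). The first call was lost without any 1 array of both fragments or D361E replicate 1 or 2. The second was lost without replicate 1 of both fragments or 1-361 replicate 1 or 3, and the third without replicate 1 of both fragments or 362-549 replicate 1.

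**Figure D1:**
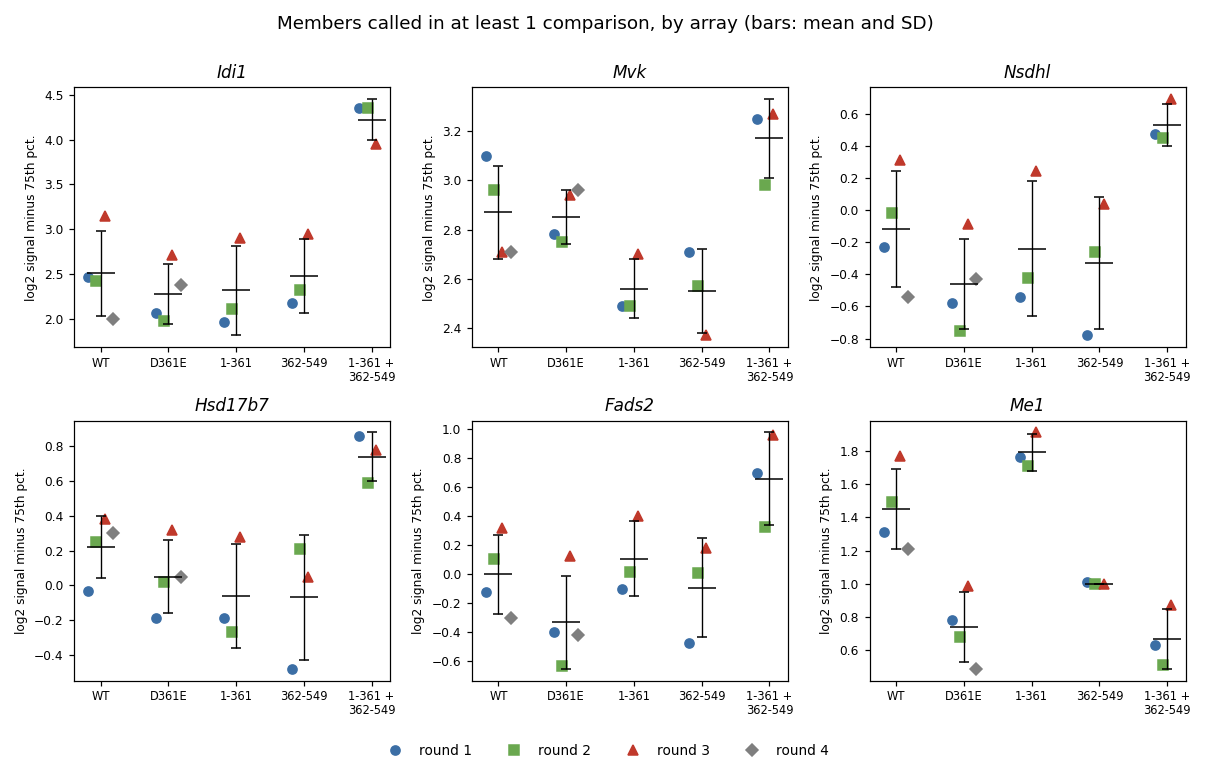
The 6 members called in at least 1 comparison, with the log2 signal minus the array's 75th percentile on the vertical axis and the construct on the horizontal axis; each point is an array, its shape the round of its title number, and the bars are the mean and SD. Idi1 with both fragments lay between 3.95 and 4.35, above all other arrays, and Me1 was highest with 1-361 and lowest with D361E and with both fragments.

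The fatty acid arm held 2 called genes. With both fragments Fads2 was called higher and Me1 lower, but against different constructs. Fads2, the Δ6 desaturase of polyunsaturated fatty acid synthesis, was at 0.70, 0.33 and 0.96 with both fragments, -0.40, -0.63, 0.13 and -0.42 in D361E and -0.47, 0.01 and 0.18 with 362-549. The first group lay above the others with no overlap. Fads2 rose 1.99-fold against D361E (0.99 ± 0.23 log2; limma adjusted p = 0.0107) and 1.69-fold against 362-549 (0.76 ± 0.24; 0.0483), a call that was lost without any 1 of the 6 arrays compared. WT (-0.12, 0.11, 0.32 and -0.30) and 1-361 (0.02, 0.40 and -0.10) were not called against both fragments.

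Me1, the malic enzyme that supplies NADPH for lipid synthesis, was the member that divided the constructs. It was highest with 1-361 (1.71, 1.91 and 1.76), followed by WT (1.31, 1.49, 1.77 and 1.21) and by 362-549 (1.01, 1.00 and 1.00). D361E (0.78, 0.68, 0.99 and 0.49) and both fragments (0.63, 0.51 and 0.87) were lowest and overlapped each other. 1-361 and WT also overlapped, by 1 WT array.
Me1 fell by 0.78 ± 0.15 with both fragments against WT (limma adjusted p = 0.00597) and by 1.12 ± 0.16 against 1-361 (0.000479). It was 0.71 lower in D361E than in WT (-0.71 ± 0.14; 0.0374), 2.08-fold higher with 1-361 than in D361E (1.06 ± 0.15; 0.00208) and lower with 362-549 than with 1-361 (-0.79 ± 0.16; 0.0417). All 3 Me1 probes gave the same direction in each of these 5 comparisons. The difference of D361E from WT was -0.53, -0.81 and -0.78 within rounds 1, 2 and 3. That call was lost under 7 of 10 other settings and without D361E replicate 1, 2 or 4 or WT replicate 1, 2 or 3, with Me1 at a difference of -0.76 to -0.60 each time. The call of 362-549 against 1-361 was lost without any 1 of the 6 arrays compared.

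Counted over the 30 tested members in the fit without a block, few were called in any comparison. With the round as a block, more members and more of all genes were called with both fragments, as given below. With both fragments against WT, 1 was higher (Idi1; 1.99% of all genes were called higher) and 1 lower (Me1; 3.14% lower). Against D361E, 4 were higher (4.31%) and 0 lower (5.38%): Idi1, Nsdhl, Hsd17b7 and Fads2. Against 1-361, 3 were higher (4.66%), Mvk, Idi1 and Hsd17b7, and 1 lower (6.49%), Me1. Against 362-549, 5 were higher (5.66%), Mvk, Idi1, Nsdhl, Hsd17b7 and Fads2, and 0 lower (8.92%). Across the 4 contrasts against WT together, limma's F-test called 3 members (Idi1, Me1 and Mvk), with 8.9% of all genes called.

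Between the other constructs there was little to count. D361E against WT gave 0 higher (0.308% of all genes) and 1 lower (0.177%), and 1-361 against WT 0 higher (0.4%) and 0 lower (0.315%). Against WT, 362-549 gave 0 higher (0.262%) and 0 lower (0.452%). Against D361E, 1-361 gave 1 higher (0.531%) and 0 lower (0.492%), and 362-549 gave 0 higher (0.413%) and 0 lower (0.872%). Set against 1-361, 362-549 gave 0 higher (0.229%) and 1 lower (0.4%). The called member was Me1 in all 3 of these comparisons that had one. Where limma called 0 in both directions, 2, 2 and 3 members (6.67, 6.67 and 10%) had an unadjusted p under 0.05, against 7.7, 8.84 and 9.93% of all genes.

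**Figure D2:**
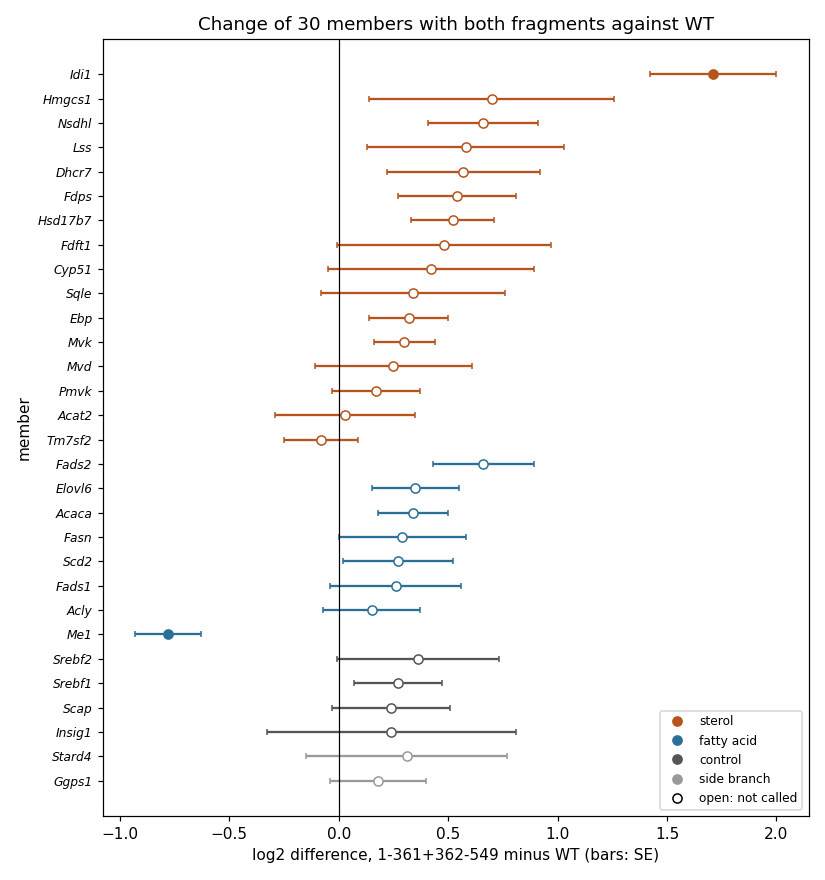
The log2 difference of cells with both fragments from WT for the 30 tested members, with bars for the SE; filled points were called by limma and open points were not. The sterol members other than Tm7sf2 lie above 0, Idi1 stands at 1.71, and Me1 is the only fatty acid member below 0, at -0.78.

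The sterol arm as a whole, with its called genes counted in, leaned the same way with both fragments. Against WT, 15 of the 16 had a positive difference, with a median of 0.45, while 54.5% of all genes were positive with a median of 0.04. Of the 16, 1 was called against WT, Idi1. The sterol median was 0.20 without replicate 3 of both fragments, 0.31 without WT replicate 4 and 0.19 with the slide as a fixed block. With the round as a block it was 0.36, with 14 of 16 positive. Among the genes not called without a block, Hmgcs1, the HMG-CoA synthase, differed by 0.70 ± 0.56, Lss, lanosterol synthase, by 0.58 ± 0.45, and Fdps, farnesyl diphosphate synthase, by 0.54 ± 0.27 (limma adjusted p = 0.546, 0.535 and 0.312). Tm7sf2, a sterol C14 reductase, was the only one below 0, at -0.08 ± 0.17. The medians were 0.30 for the 7 genes of the mevalonate steps and 0.48 for the 9 from squalene to cholesterol. In the fatty acid arm 7 of 8 were positive, with a median of 0.28, among them Fasn, the fatty acid synthase (0.29 ± 0.29), and Acly, ATP citrate lyase (0.15 ± 0.22).

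Against WT, the medians of the 2 arms lay within the spread between arrays of each other. The median of the sterol arm minus that of the fatty acid arm was 0.16 with both fragments against WT, -0.02 for D361E, -0.14 for 1-361 and -0.05 for 362-549, against a spread of 0.31 (SD) between arrays of one group. That spread is of single arrays, includes the differences between rounds and is not the error of a difference between groups. Round 4 holds only WT and D361E arrays, so the fragment groups and WT are not balanced over rounds. The sterol and fatty acid medians were -0.24 and -0.22 for D361E, -0.06 and 0.08 for 1-361, and -0.04 and 0.01 for 362-549. With the round as a block they were 0.36 and 0.34 for both fragments, -0.19 and 0.04 for 1-361, and -0.15 and -0.02 for 362-549. Without the block, the sterol and fatty acid medians with both fragments were 0.74 and 0.37 against D361E, 0.55 and 0.26 against 1-361, and 0.50 and 0.21 against 362-549. The sterol median was the higher in each of these 3, also without replicate 1 or 2 of both fragments. Without replicate 3 of both fragments the medians were 0.44 and 0.43 against D361E, 0.23 and 0.29 against 1-361, and 0.23 and 0.3 against 362-549. Against WT they were then 0.2 and 0.27. The gap between the arms was thus not kept without that round 3 array. Within rounds 1, 2 and 3, the sterol arm median with both fragments minus WT was 0.39, 0.07 and 0.39, with 15, 11 and 15 of 16 genes positive. The fatty acid arm median was 0.38, 0.07 and 0.13, with 6, 4 and 5 of 8 positive. In all 3 rounds, 11 of 16 sterol genes and 3 of 8 fatty acid genes were higher with both fragments than in WT, against 30% of all genes. Set against D361E, the same held for 14 of 16 and 5 of 8 (30.6% of all genes). D361E was below WT in all 3 rounds for 11 of 16 sterol genes (18.0% of all genes), as was 1-361 for 12 (16.6%) and 362-549 for 10 (16.4%). The comparisons above share the arrays with both fragments, and those against WT share the WT arrays.

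A contrast between genes of the pathway also ran across rounds, within every construct. The sterol arm median, relative to the WT mean, was -0.06, -0.04, 0.61 and -0.53 on the WT arrays of rounds 1 to 4 and -0.21, -0.54, 0.27 and -0.51 on the D361E arrays. On rounds 1 to 3 it was -0.35, -0.30 and 0.51 with 1-361, -0.24, -0.21 and 0.48 with 362-549, and 0.37, 0.00 and 0.95 with both fragments. Round 3 was the highest of each construct. The array of round 3 was the highest of its construct in all 5 constructs for 11 of 16 sterol genes, against 13.2% of all genes: Acat2, Hmgcs1, Pmvk, Mvd, Fdps, Fdft1, Sqle, Lss, Cyp51, Nsdhl and Dhcr7. The mean 75th percentile signal was 801, 907, 770 and 926 in rounds 1 to 4, and its part in this was not tested. This description was made after the values were seen and has no test.

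**Figure D3:**
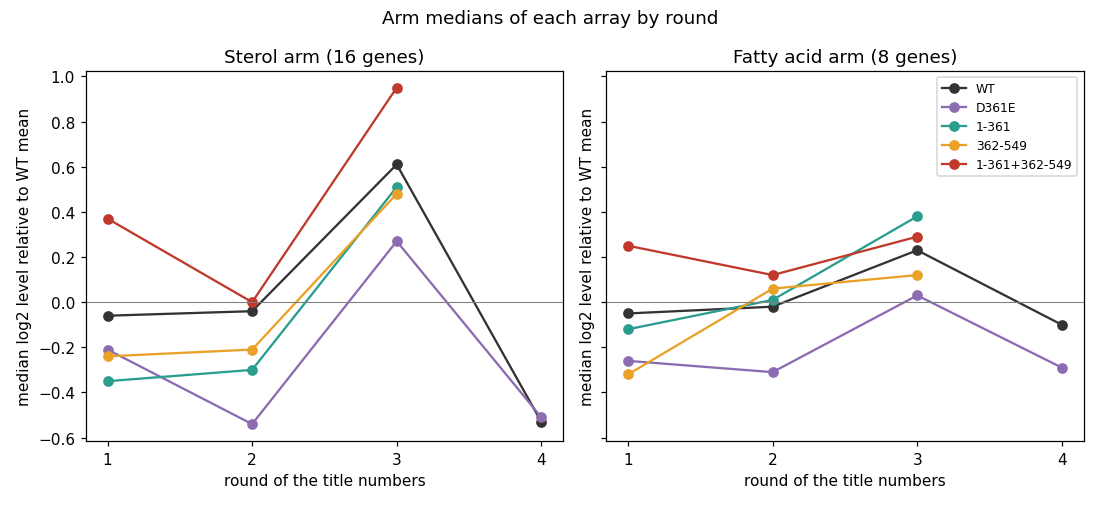
The median log2 level of the sterol arm (left) and of the fatty acid arm (right) relative to the WT mean, on the vertical axis, by the round of the title numbers, on the horizontal axis, with 1 line per construct and 1 point per array. The sterol median peaked in round 3 in all 5 constructs, at 0.27 to 0.95, and the line of both fragments lies at or above the others in the sterol panel.

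Among the members, Hmgcs1 had the highest deviation in round 3. In the list of other lipid genes, Lpin1 (1.39), Msmo1, a sterol oxidase (1.23), and Insig2 (1.04) were above it. Its WT levels were 3.84, 3.82, 5.02 and 2.92 in rounds 1 to 4. Its mean deviation from the construct means was 0.97 in round 3 and -0.20, -0.46 and -0.76 in rounds 1, 2 and 4. Fdft1, squalene synthase, deviated by 0.87, Cyp51 by 0.84, Lss by 0.81 and Sqle, squalene epoxidase, by 0.75 in round 3. In the control genes, Srebf2 was also highest in round 3 in all 5 constructs (0.66), while Scap was lowest in all 5 (-0.38).

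The fatty acid arm split within itself across rounds. Acly, Scd2, Fads1 and Fads2 were highest in round 3 in all 5 constructs, with mean deviations of 0.29, 0.34, 0.51 and 0.33. Fasn was lowest in all 5: its level was -2.09, -1.85, -1.98, -1.87 and -1.82 on the round 3 arrays of WT, D361E, 1-361, 362-549 and both fragments, and -1.73 to -0.93 on all others. Acaca, acetyl-CoA carboxylase, which makes the malonyl-CoA that Fasn uses, deviated by -0.14. In the sterol arm, Ebp, a sterol isomerase, was the 1 gene lowest in round 3 in all 5 constructs (-0.23), and Mvk, with a deviation of 0.00, followed the rounds least. Of all genes, 13.1% were lowest in round 3 in all 5 constructs.

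This spread between rounds enters the error of the tests. The median SD between arrays of one construct was 0.42 for sterol genes, 0.29 for fatty acid genes and 0.30 for all genes. With the round as a block the residual SD was 0.18, 0.14 and 0.19. In that alternative fit limma called 10 members higher (17.1% of all genes) and 1 lower (13.7%) with both fragments against WT. It called 16 higher against D361E (21.1%), 15 higher (18.6%) and 1 lower (18.4%) against 1-361, and 15 higher (18.6%) and 1 lower (21.2%) against 362-549. Of the sterol arm, 7, 11, 10 and 12 of 16 were called higher in these 4 comparisons, and of the fatty acid arm 3, 4, 4 and 2 of 8. In all 4, the sterol genes included Hmgcs1, Idi1, Fdps, Lss, Nsdhl, Hsd17b7 and Ebp. The slide as a fixed block moved the counts the other way, to 0, 2, 2 and 0 members. The share of all genes called with that block is not given here. Without scaling, the median of all genes moved to 0.23, 0.41, 0.39 and 0.58 in these comparisons, and the called members numbered 1, 15, 11 and 18. Of all genes, 432, 2603, 2110 and 5461 were called there without scaling, against 783, 1478, 1701 and 2223 with scaling. The share of all called genes that were higher then went from 38.8, 44.5, 41.8 and 38.8% to 44.4, 86.2, 86.3 and 94.2%.

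The control genes of the pathway were not called in any comparison of constructs without a block: limma called 0 of 4, and 1 had an unadjusted p under 0.05 in 2 of the 10 comparisons. With the round as a block, Srebf2 was called higher with both fragments against D361E and 362-549, and Scap against 1-361. Srebf1 differed from WT by 0.27 ± 0.20 with both fragments (confidence interval, 95%, -0.16 to 0.70), Srebf2 by 0.36 ± 0.37 (-0.44 to 1.15), Scap by 0.24 ± 0.27 (-0.33 to 0.81) and Insig1 by 0.24 ± 0.57 (-0.98 to 1.45). These intervals still hold differences of a size seen for called members. Insig1, itself an SREBP target, varied most of all members between arrays of one construct (SD 0.82). Stard4, a sterol carrier, was highest in round 3 in all 5 constructs (mean deviation 0.77), and Ggps1, which leads from farnesyl diphosphate to protein prenylation, was not.

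The other lipid genes, a list of 31 tested, were counted in the same way. With both fragments, 1 was called higher and 2 lower against WT, 3 and 2 against D361E, 2 and 2 against 1-361, and 2 and 2 against 362-549. The shares of all genes called higher and lower there were 1.99 and 3.14%, 4.31 and 5.38%, 4.66 and 6.49%, and 5.66 and 8.92%. In the 6 comparisons without both fragments, limma called 0 of the 31 in either direction, with 1 at an unadjusted p under 0.05 in each (3.23%, against 5.01 to 9.93% of all genes). With the round as a block, Abcg1 alone was called there: lower with 1-361 than in WT (-0.74, adjusted p = 0.00655; 0.636% of all genes called lower) and in D361E (-0.82, 0.00267; 1.33%). It was also higher with 362-549 than with 1-361 (0.96, 0.00119; 0.8% called higher). The called genes came from uptake, efflux and remodelling and from fatty acid elongation.

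Abcg1 and Abca1, sterol efflux transporters and targets of the oxysterol receptor LXR, were lower with both fragments. Abcg1 was at -2.15, -2.23 and -1.59 there, 0.24, 0.82, 1.19 and 0.26 in WT, 0.60, 0.68, 1.10 and 0.45 in D361E, -0.03, 0.32 and -0.31 with 1-361, and 0.58, 0.88 and 1.38 with 362-549. All 3 arrays lay below all 14 others. Abcg1 fell by 2.62 ± 0.27 against WT, 6.14-fold (limma adjusted p = 1.63e-05), and was called lower against each other construct.
Abca1 was at -3.87, -3.70 and -4.10 with both fragments and between -3.22 and -2.05 on all other arrays. It fell by 1.18 ± 0.18 against WT (limma adjusted p = 0.000834). With normexp background correction the Abca1 difference was -0.59 and was not called (adjusted p = 0.729), and without scaling or with the slide as a fixed block its adjusted p was 0.0628 or 0.0996.

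Lpcat3, an acyltransferase that places polyunsaturated chains into phospholipids and is another LXR target, was higher with both fragments. Its levels were 2.45, 2.49 and 2.17 there, 1.43, 1.62, 1.59 and 1.71 in D361E, 1.49, 1.29 and 1.45 with 1-361, and 1.34, 1.75 and 1.07 with 362-549. It rose by 0.78 ± 0.19, 0.96 ± 0.20 and 0.98 ± 0.20 against these 3 (limma adjusted p = 0.0149, 0.00804 and 0.00559), and the difference from WT, 0.60, was not called (0.0889). Hsd17b12, a reductase of fatty acid elongation, rose by 0.52 ± 0.15 against D361E and 0.76 ± 0.16 against 362-549 (0.0402 and 0.00619). The Hsd17b12 call against D361E was lost with quantile scaling, normexp, no filter or the slide block (adjusted p = 0.0737, 0.346, 0.114 and 0.161) and without any 1 array of both fragments or D361E replicate 1, 2 or 4. Its call against 362-549 was lost with normexp or the slide block (0.0732 and 0.236). Lpcat3 lost its calls against D361E and 1-361 with normexp (0.0735 and 0.0522), all 3 with the slide block (0.0758, 0.0943 and 0.227), and that against D361E without replicate 1 or 2 of both fragments. The fifth gene called without a block was that of a probe named Tmem97, which rose by 0.68 ± 0.19 against WT (limma adjusted p = 0.0492). It was also called against D361E and 1-361. This gene lies outside the rule for named genes and was added after its values were seen. The array's design places this probe on chromosome 16 and RefSeq the gene on chromosome 11, so what the probe measures is not settled here.

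**Figure D4:**
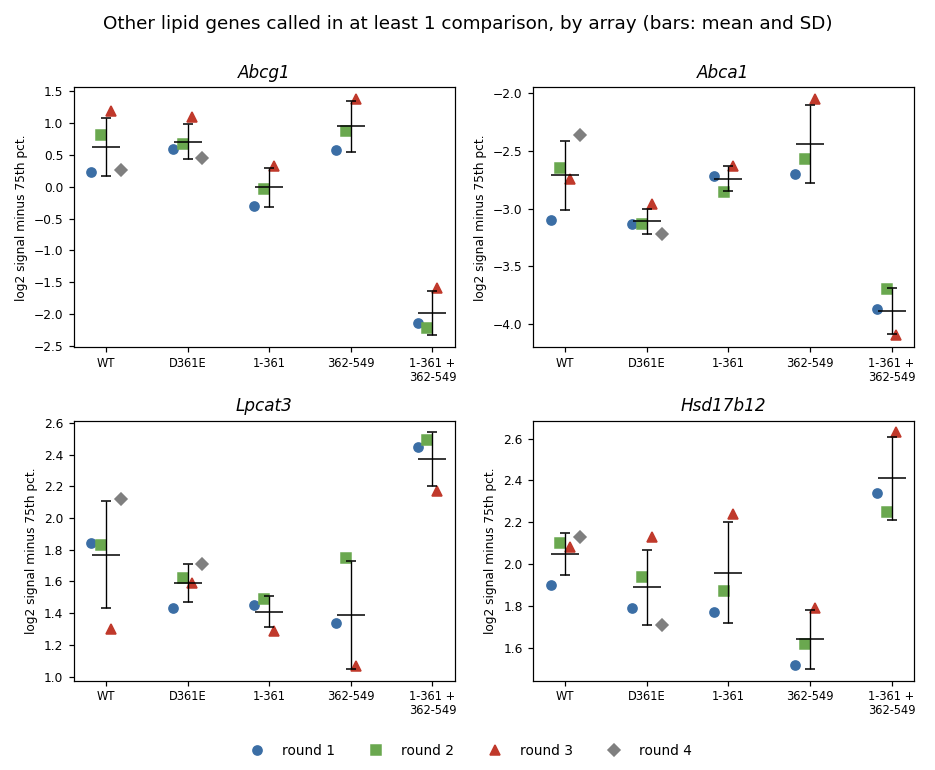
The 4 other lipid genes with the smallest adjusted p, with the log2 signal minus the array's 75th percentile on the vertical axis and the construct on the horizontal axis; points are arrays, shapes are rounds, and the bars are the mean and SD. Abcg1 with both fragments lay between -2.23 and -1.59, below all other arrays, and Lpcat3 was highest there.

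Markers of several cell types differed between constructs. The summed linear signal of the 3 measured mast cell or basophil markers, relative to the 75th percentile, was 0.0253 to 0.0394 with both fragments and 1.67 to 3.16 in WT, with the other constructs between 0.403 and 1.42. Of these, Cpa3, Fcer1a and Mcpt8 were well above background on 15, 10 and 7 of the 17 arrays. They passed the filter through groups where they were higher, so the sum with both fragments may lie near background. The sum of the 5 progenitor markers was 37.8 to 50.3 with both fragments and 66.8 to 79.9 in WT. These 5 did not all move together: Csf2rb fell by 1.17 against WT and was called. Spi1 (-0.81), Il3ra (-0.27), Ptprc (-0.12) and Myb (0.12) were not called. The 4 megakaryocyte markers summed to 110 to 183 with both fragments and 38.9 to 51.7 in WT. In all, 3 of 3, 1 of 5 and 1 of 4 of these markers were called against WT. Of the megakaryocyte list, Pf4 rose by 2.20, Ppbp was at 1.45, Itga2b at -0.40 and Gp9 at 0.01. Of the macrophage list, Emr1 fell by 3.48, while Cd68 (-1.35) and Csf1r (-0.23) were not called. Of the T cell list, Cd3d fell by 0.95 and Cd3g by 2.09, while Cd3e was at 0.20 and not called. Cd3g was well above background on at most 9 of the 17 arrays. The erythroid sum was 17.4 to 48.0 in D361E, 34.0 to 35.9 with 1-361, 41.4 to 83.9 with 362-549 and 12.0 to 19.7 with both fragments, against 7.33 to 17.5 in WT. Its 4 measured markers did not all move together. With both fragments against WT, Hbb-b1 was at 1.33, Hba-a1 at 0.79, Hbb-bh1 at -0.07 and Klf1 at -0.84. With 1-361 against WT, they were at 3.16, 1.87, 3.61 and -0.67. Among 3 hepatocyte markers, of a tissue with high lipid synthesis, 3 were not well above background on any array. The part of these markers in the lipid gene differences was not tested. In such bulk samples, fewer cells of a type and less RNA per cell cannot be told apart.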

How the data were processed

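RNA of 17 samples was hybridised to one-colour (Cy3) Agilent mouse arrays, and each array's scanner output was deposited as probe intensity. Per the file headers, the authors extracted the intensity with Agilent Feature Extraction 10.7.3.1, which had subtracted background in the processed signal used here; the deposited series table held the same values. Probe positions are those of the array's design, and exon annotation was not used here.

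Control spots and 132 probes flagged as outliers were left out, spots of one probe were averaged, and each array was scaled as log2 intensity minus its 75th percentile. Of 39429 probes, 19769 were kept as well above background, and the brightest probe stood for each of 15254 genes. R 4.3.3 and limma 3.58.1 fitted 1 model of 5 constructs (12 residual degrees of freedom) with Benjamini-Hochberg adjustment. The fitting was tested on simulated arrays with independent noise and no round or slide differences, so that check does not cover such differences. Where members had several kept probes (12 members), the called genes' probes gave the same direction. The arrays lay on 6 slides and were scanned on 1 day. The number of arrays and the spread between them limit the precision, with a median standard error of 0.228 over genes.

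Values on every array are given for called members, and up to 4 called genes by smallest adjusted p for the list of other lipid genes. The members and lists were chosen with earlier results of these data known. The settings tried were quantile and no scaling, normexp, both filters, the mean of probes, slide and round blocks, pairs of groups alone and leaving out each array. The rounds were read from title numbers after the values were seen, and the 4 promoters and the NF-Y capitals were chosen after values and motif counts were seen. A comparison between rounds was also fitted after the values were seen and is not reported.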

Additional observations from a re-analysis of the deposited data

Results flagged for a closer look

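In the D361E group, replicate 3 stood far from the other 3 arrays for 2 genes. Fads1, the Δ5 desaturase, had a log2 level of 2.65 there against 1.87 to 1.97 on the others, and Srebf2 had 1.25 against 0.44 to 0.49. Of 60 groups of 4 arrays examined, chance alone would set such an array apart in about 1 in 20. Replicate 3 is a round 3 array.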

How the results depend on the processing

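Of the 18 calls of a member in a comparison, 0 changed direction under any setting, and Idi1 with both fragments against D361E and against 1-361 and Me1 with both fragments against 1-361 were called under every setting run. Of the 18 calls, 15 held with quantile scaling, 16 without scaling, 8 with normexp, 16 with the filter on all arrays, 11 without a filter, 16 with the mean of probes, 4 with the slide as a fixed block, 18 with the slide as a random block, 18 with the round block and 7 when only the 2 groups were fitted. Leaving out 1 array kept 76 of 117.

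The count of members called went from 1 to 0 for D361E against WT under quantile scaling, normexp, the all-array filter, no filter, the mean of probes, the slide block and 2 groups alone. For 362-549 against 1-361 it went from 1 to 0 under the same settings, with no scaling in place of quantile scaling. With 1-361 against D361E it was 0 under the slide block. For both fragments against WT it was 1 without scaling, with normexp and with 2 groups alone, 0 with the slide block and 11 with the round block. Against D361E it was 15 without scaling, 2 with the slide block and with 2 groups alone, and 16 with the round block. Against 1-361 it was 11 without scaling, 2 with normexp, no filter, the slide block and 2 groups alone, and 16 with the round block. Against 362-549 it was 18 without scaling, 1 with normexp and 2 groups alone, 3 without a filter, 0 with the slide block and 16 with the round block. For 362-549 against WT it was 1 without scaling and with the round block, for 362-549 against D361E 1 with the round block, and for the F-test 8 without scaling and 18 with the round block. The number of all genes called also changed with the setting. With both fragments against WT, D361E, 1-361 and 362-549 it was 432, 2603, 2110 and 5461 without scaling. With normexp it was 199, 447, 293 and 412. The cause was not tested.

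Leaving out 1 array gave 0 to 1 members for D361E against WT, 0 for 362-549 against 1-361, 2 to 3 for both fragments against WT, 2 to 4 against D361E, 2 to 6 against 1-361, 1 to 3 against 362-549 and 2 to 3 for the F-test. The count fell to 2 against D361E without replicate 1 of both fragments or D361E replicate 1 or 2, and to 2 against 1-361 without replicate 1 of both fragments or 1-361 replicate 1 or 3. It fell to 1 against 362-549 without replicate 1 of both fragments. The sterol minus fatty acid difference spanned -0.13 to 0.13 for D361E, -0.28 to -0.04 for 1-361, -0.18 to 0.12 for 362-549 and -0.07 to 0.38 for both fragments. Within slide 6 it was -0.46 for 1-361, and within slides 1, 5 and 6 it was 0.29, 0.40 and -0.51 for 362-549.

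As a check of pairing, made after the calls were seen, the deviations of same-round arrays of different constructs correlated at -0.18 to 0.73 (median 0.38; 24 of 31 pairs over 0.1), and 14 of 17 arrays correlated best with one of their own round. Arrays of different rounds and constructs correlated at -0.70 to 0.67 (median -0.14, 19 of 84 pairs over 0.1). By the median, same-round arrays were thus more alike, least so in round 2 (0.06, 4 of 10 pairs over 0.1). The fit without the round block stayed the one reported because not every same-round pair was over 0.1. That criterion leaves the likeness of same-round arrays out of the model, although all 10 round 3 pairs were over 0.1. The counts of called members with both fragments depend on it. That choice is not a test of pairing, and the added calls under the block are an alternative.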
